A study of Mus musculus with 8 samples.

Results

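Runx1, Runx2, Runx3 and Cbfb encode the mammalian core-binding factors, and their transcripts were followed here through 2 mouse cell lines in which TCF-1 had been added or removed. The 4 genes were chosen by name, and all 4 were present in each of the 8 deposited count files, which list 53465 genes for 3T3 and 31053 for Scid.adh. NIH-3T3 is a line of mouse embryonic fibroblasts, and Scid.adh is a thymic lymphoma line from immunodeficient mice that is used as a model of the DN3 stage of T cell development. The groups, of 2 libraries each, were 3T3 cells induced to express TCF-1 (genotype Tcf7 induced), normal untreated 3T3 cells, Scid.adh cells with TCF-1 knocked out (genotype Tcf7-/-) and wild type Scid.adh cells carrying an empty vector. The series concerns how TCF-1, the product of Tcf7, reorganizes the folding of the genome. Per the file headers, all 4 3T3 libraries came from cells with Cas9, an empty LRG21 vector and the names pIND21 and P33, at 72 hours, and doxycycline was named for the induced libraries alone. The effects of doxycycline and of TCF-1 in 3T3 therefore cannot be told apart. The sources used here do not give whether the knockout line was 1 clone, how Tcf7 was altered, or whether 2 libraries of a group were grown apart. The p-values therefore measure the spread between libraries, which may be technical.

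Runx proteins bind DNA through their Runt domain, and CBFβ, which does not touch DNA itself, joins each of them and raises its affinity. Runx1 is required for blood stem cells to form and for early thymocytes to mature, Runx2 is the master regulator of bone-forming osteoblasts, and Runx3 acts in cytotoxic T cells, where it silences Cd4 and activates the CD8 programme. Because the 3 Runx proteins share 1 partner and read the same motif, their levels relative to each other and to Cbfb are a usual question in T cell development. Each Runx gene is transcribed from a distal and a proximal start, and the distal starts resemble each other.

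In GRCm38, Runx1 (ENSMUSG00000022952) lies on the minus strand of chromosome 16 at 92601466 to 92826149, and Runx2 (ENSMUSG00000039153) on the minus strand of chromosome 17 at 44495987 to 44814797. Runx3 (ENSMUSG00000070691) lies on the plus strand of chromosome 4 at 135120652 to 135177990, and Cbfb (ENSMUSG00000031885) on the plus strand of chromosome 8 at 105170674 to 105217989. The stretches printed here are shown because they are the feature that the distal starts of the 3 Runx genes share. They are read 5′ to 3′ on the strand of the gene, from the RefSeq promoter windows of build GRCm38.p6, with the paired Runx motif AACCACANAACCACA in capitals.
Runx1: tcataaacAACCACAGAACCACAagttggg
Runx2: tcacaaacAACCACAGAACCACAagtgcgg
Runx3: ggtccctcAACCACAGAACCACAaggccag

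The Runx1 stretch is chr16:92826026-92826055 on the minus strand, the Runx2 stretch chr17:44814584-44814613 on the minus strand and the Runx3 stretch chr4:135120502-135120531 on the plus strand. Counted from the RefSeq start of each window (92826074 for Runx1, 44814627 for Runx2 and 135120645 for Runx3, which are not the gene ends of the annotation given above), the pair began 27 and 22 bases downstream in Runx1 and Runx2 and 135 bases upstream in Runx3. The search covered both strands of 32851 windows, each running from 250 bases before to 50 bases after a start. It found the pair in 5 windows (0.0152%), which were those of the 3 Runx genes, one of Gm16225 that overlaps the Runx3 window on the opposite strand, and one of Olfr24. A single AACCACA, which the pair contains, was present in 1731 windows (5.27%). The second windows of Runx1 and Runx3 and the only window of Cbfb held no match to AACCACA. The TCF motif CTTTGAT was in 1225 windows (3.73%) and in none of the 6 windows of the 4 genes, and its shorter form CTTTGA, found in 5257 windows (16.0%), was in that of Runx2 alone. These are matches of letters within the windows. Gene-level counts do not separate transcripts of the distal start from those of the proximal start.

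The libraries held 13850213 to 16857868 counts in induced 3T3 cells, 16174002 to 17523677 in normal 3T3 cells, 7740198 to 8217933 in knockout Scid.adh cells and 9847239 to 10392402 with the empty vector. Tcf7, the gene that was manipulated, was at 946 and 972 CPM in the induced 3T3 libraries, against 14.4 and 14.7 CPM in the normal ones. CPM are counts scaled to a common depth, here with library sizes adjusted by TMM factors. In Scid.adh it was at 646 and 624.5 CPM in the knockout, against 1318 and 1325 CPM with the empty vector, so its transcripts were lower by 1.06 on the log2 scale but still abundant. Gene-level counts do not show which part of Tcf7 was altered. All 8 fibroblast markers were above 1 CPM in both 3T3 groups, with summed levels of 23829 to 23938 CPM in induced cells and 25670 to 26266 CPM in normal cells. Of 10 DN3 thymocyte markers, 9 were above 1 CPM in both Scid.adh groups, with sums of 3433 to 3562 CPM in the knockout and 4346 to 4398 CPM with the empty vector. The knockout libraries differed from each other more than any other pair, with a mean chi-square per gene of 6.89, against 1.97 with the empty vector, 1.91 in induced 3T3 cells and 1.17 in normal 3T3 cells.

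In 3T3 cells, the transcripts of Runx2 and Cbfb were lower with TCF-1 induced, by about the same proportion, while those of Runx1 were not detectably different and those of Runx3 stayed near the limit of detection. Runx2 was at 80.3 and 84.1 CPM in the induced libraries, against 111 and 112 CPM in the normal ones. Both induced libraries lay below both normal ones, and the log2 change was -0.44 (SE 0.05, adjusted p = 3.37e-10, quasi-likelihood test of edgeR, adjusted after Benjamini and Hochberg), 1.36-fold lower. Cbfb, the shared partner, was at 84.7 and 94.1 CPM in the induced libraries, against 117 and 121 CPM in the normal ones. These groups did not overlap either, and the change was -0.41 (SE 0.05, adjusted p = 3.07e-09 in edgeR), 1.33-fold lower. Calls at an adjusted p under 0.05 were made for 36.8% of the 18185 genes tested in 3T3, beside 2 of 4 members. They were more frequent at the level of Runx2 and Cbfb. Of the 3653 tested genes whose mean CPM was within 2-fold of that of Runx2, 27.5% rose and 31.6% fell. Of the 3508 within 2-fold of the level of Cbfb, 27.5% rose and 32.4% fell.

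Runx1 was at 144 and 156 CPM in the induced 3T3 libraries, against 149.6 and 148 CPM in the normal ones. The normal libraries lay between the induced ones, and the log2 difference was 0.00 (SE 0.04, adjusted p = 0.961 in edgeR). Runx3 had only 25 and 31 counts in the induced libraries, against 19 and 24 counts in the normal ones. That is 1.47 and 2.23 CPM with TCF-1 induced and 1.19 and 1.38 CPM without. The induced libraries were the higher ones, but the log2 difference of 0.50 (SE 0.30) was not called (adjusted p = 0.213 in edgeR), and it was 0.80 without induced library 1 and 0.19 without induced library 2.

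An exon of an antisense gene overlaps Runx1 (Gm26626, by 106 bases) and Runx2 (Runx2os1, by 519 bases). Whether the counting used strand is not stated, so reads in these overlaps may have been left uncounted or given to the other gene. Runx2os1 was at 4.12 and 3.46 CPM in the induced 3T3 libraries, against 4.0 and 4.25 CPM in the normal ones, a small fraction of the Runx2 level, and was not called (adjusted p = 0.697 in edgeR). Gm26626 was not called either. A further antisense gene at the Runx2 locus, Runx2os2, whose exons do not overlap those of Runx2, was at 1.12 and 1.51 CPM with TCF-1 induced, against 3.07 and 1.95 CPM without. Its log2 change of -0.94 (SE 0.29, adjusted p = 0.00837 in edgeR) lost its call in DESeq2 (adjusted p = 0.150), without normal library 1 (-0.59) and without induced library 1 (-0.71).

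**Figure D1:**
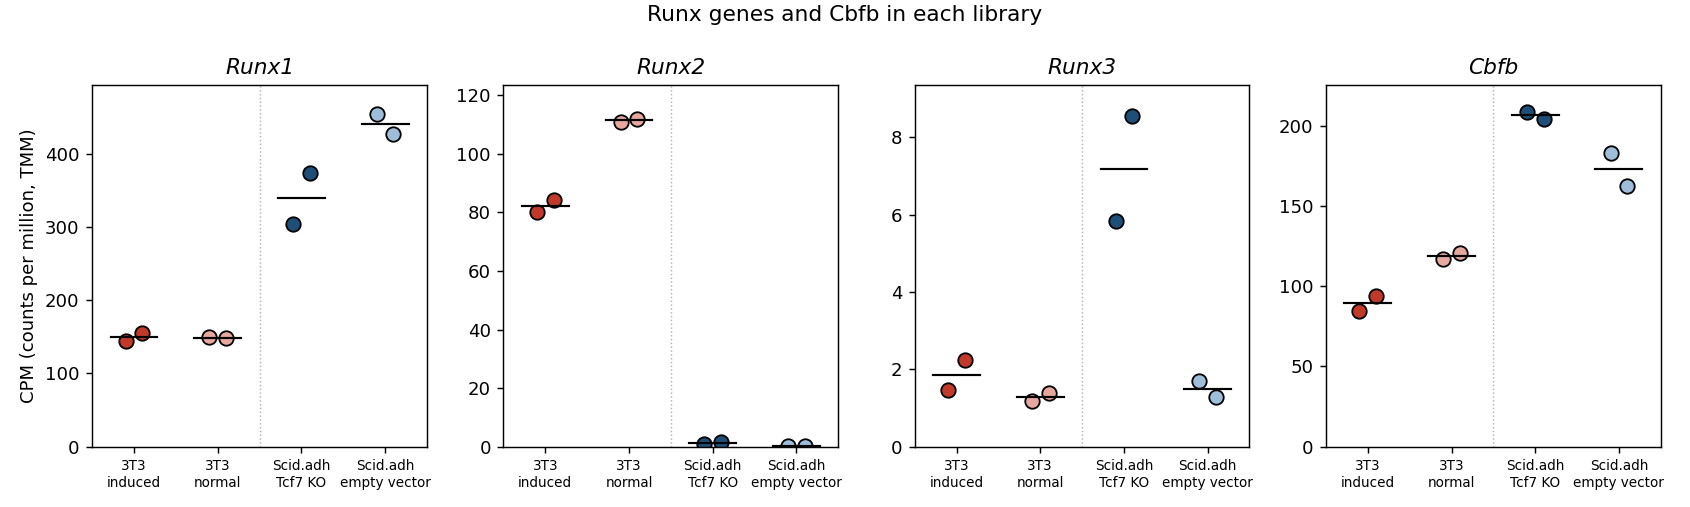
CPM of Runx1, Runx2, Runx3 and Cbfb in each library, on linear axes that start at 0; each point is 1 library and each bar the mean of 2, with the induced or knockout group left of its control within a line. Runx2 was between 80.3 and 112 CPM in 3T3 and under 2 CPM in Scid.adh, and Runx3 was highest in the 2 knockout libraries, at 5.84 and 8.54 CPM.

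In Scid.adh cells without TCF-1, Runx1 was lower and Runx3 and Cbfb were higher, so the factors of the family moved in opposite directions. Runx1, the dominant Runx gene of this line, was at 304 and 374 CPM in the knockout libraries, against 455 and 427 CPM with the empty vector. The groups did not overlap, although the knockout libraries were farther apart than those with the empty vector, and the log2 change was -0.38 (SE 0.08, adjusted p = 0.00478 in edgeR), 1.30-fold lower. Without knockout library 1 it was -0.25 and without knockout library 2 -0.53, and it was called in both cases. Runx3 was at 5.84 and 8.54 CPM in the knockout, from 48 and 72 counts, against 1.71 and 1.28 CPM with the empty vector, from 17 and 12 counts. It was thus a low transcript in every library, and 4.76-fold higher in the knockout, a log2 change of 2.25 (SE 0.34, adjusted p = 3.93e-04 in edgeR). Cbfb was at 208 and 204 CPM in the knockout, against 183 and 162.5 CPM with the empty vector. Its groups did not overlap, and its log2 change of 0.26 (SE 0.07, adjusted p = 0.0153 in edgeR) was the smallest of the called members.

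The call of Cbfb in Scid.adh was lost without empty vector library 2, where the change was 0.16 (adjusted p = 0.364 in edgeR), and without the filter on low counts, where it was 0.20 (adjusted p = 0.0745). All 3 members that could be tested in Scid.adh were called, beside 31.5% of the 11941 genes tested in this line, of which 15.6% rose and 15.9% fell. Runx2 had 7 and 13 counts in the knockout, against 3 and 2 counts with the empty vector, and was removed by the filter on low counts. The 20 counts summed over the knockout and the 5 summed over the empty vector, set against the TMM-scaled library sizes, gave a ratio of 4.63, with an exact 95% interval of 1.69 to 15.8 that covers counting error only. At 0.851 and 1.54 CPM in the knockout and 0.302 and 0.214 CPM with the empty vector, Runx2 was near the floor in both groups, and the ratio rests on few reads.

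Changes in Scid.adh varied with the level of a gene. The 1905 tested genes whose mean CPM was within 2-fold of that of Runx3 had a median log2 change of 0.24, with 22.5% called higher and 7.30% called lower in the knockout, and 3.10% of them had a larger log2 change than Runx3. The 1099 genes within 2-fold of the level of Runx1 had a median of -0.13, with 36.6% called lower, and 12.7% of them lay below Runx1. The 2305 genes near the level of Cbfb had a median of -0.10, with 8.20% called higher, and 5.21% of them lay above Cbfb. With this dependence on level removed by a loess fit, a step chosen after seeing the data, the log2 changes in Scid.adh were -0.25 for Runx1 (adjusted p = 0.0415 in limma), 1.66 for Runx3 (adjusted p = 0.00209) and 0.36 for Cbfb (adjusted p = 0.00413). After that step the directions and calls of Runx1, Runx3 and Cbfb in this line were those of the main fit. The changes of Runx1 and Runx3 were smaller and that of Cbfb was larger. The part of this dependence on level in the changes was not tested.

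The changes of the members in the 2 lines were compared in 1 joint fit of the 8 libraries over the 15854 genes that passed the filter there. In that fit Cbfb changed by -0.43 (SE 0.06) with TCF-1 induced in 3T3 and by 0.23 (SE 0.06) with TCF-1 knocked out in Scid.adh. The difference between the changes, 3T3 minus Scid.adh, was -0.67 (SE 0.09, adjusted p = 5.18e-07 in edgeR). Runx2 changed by -0.46 (SE 0.06) in 3T3 and by 2.14 (SE 0.61) in Scid.adh, a difference of -2.60 (SE 0.61, adjusted p = 0.00126 in edgeR). Runx2 entered this fit through its 3T3 counts alone, having been removed by the filter in Scid.adh, so its values there rest on the 25 counts given above and are given as a description. Gain of TCF-1 went with less Cbfb transcript in fibroblasts, and loss of TCF-1 with more in Scid.adh.

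Runx1 changed by -0.01 (SE 0.07) in 3T3 and by -0.40 (SE 0.07) in Scid.adh, a difference of 0.39 (SE 0.10, adjusted p = 0.00413 in edgeR). Runx3 changed by 0.48 (SE 0.33) in 3T3 and by 2.23 (SE 0.31) in Scid.adh, a difference of -1.75 (SE 0.47, adjusted p = 0.00466 in edgeR). The changes of Runx1, Runx3 and Cbfb, which were tested in both lines, thus differed between the lines, beside 30.7% of the genes in this fit. The change of Runx3 was positive with TCF-1 gained and with TCF-1 lost, and of these changes that with TCF-1 lost was called.

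**Figure D2:**
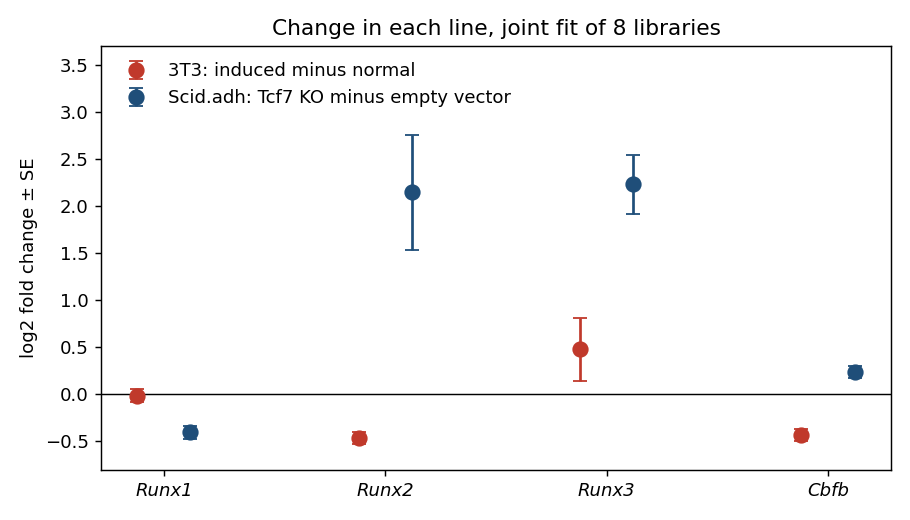
Log2 fold change of each member in the joint fit of 8 libraries, with its standard error; for each gene the 3T3 change (induced minus normal) stands left of the Scid.adh change (knockout minus empty vector). Cbfb and Runx2 lie below 0 in 3T3 and above 0 in Scid.adh, Runx1 is near 0 in 3T3 and at -0.40 in Scid.adh, and Runx3 lies above 0 in both.

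To compare the genes with each other, counts were divided by the length of the union of their exons (12025 bases for Runx1, 8837 for Runx2, 5003 for Runx3 and 3480 for Cbfb) and scaled in each library to TPM, a level per length, over 30692 genes that both tables list. Each line has its own gene table, so levels set across lines are a description. Normal 3T3 cells carried Runx1 and Runx2 in nearly equal amounts, and induced cells had an excess of Runx1. Runx1 made up 56.0% and 56.5% of the summed Runx level in the induced libraries, against 49.4% and 48.8% in the normal ones. The share of Runx2 was 42.6% and 41.5% in the induced libraries, against 49.7% and 50.1% in the normal ones. Runx3 contributed 1.38% and 1.95% with TCF-1 induced and 0.942% and 1.09% without. None of these shares overlapped between the groups, but an exact permutation test of 2 libraries against 2 cannot give a p below 0.333, and gave that value for each share. The near equality depends on the length used: per base of the longest annotated transcript, Runx1 held 65.9% in induced and 59.1% in normal cells, and Runx2 32.9% and 40.1%, with the same direction of change.

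Scid.adh cells carried almost only Runx1. Its share was 95.2% and 94.3% in the knockout, against 99.01% and 99.2% with the empty vector. Most of the difference went to Runx3, whose share was 4.40% and 5.18% in the knockout, against 0.897% and 0.715% with the empty vector. Runx2 stayed below 1% in every Scid.adh library, at 0.363% and 0.530% in the knockout, against 0.0896% and 0.0675% with the empty vector. The groups did not overlap in any of these shares (exact permutation p = 0.333, the smallest possible). Even in the knockout, where it was highest, Runx3 stood at 4.83 and 6.98 TPM beside 105 and 127 TPM of Runx1.

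The level of Cbfb relative to its Runx partners moved in opposite directions in the 2 lines. In 3T3 there were 1.14 and 1.18 Cbfb transcripts per Runx transcript in the induced libraries, against 1.33 and 1.37 in the normal ones. In Scid.adh there were 2.26 and 1.78 in the knockout libraries, against 1.38 and 1.30 with the empty vector. Both differences were without overlap (exact permutation p = 0.333, the smallest possible). The control groups of the 2 lines were close to each other in this ratio, at 1.35 ± 0.03 in normal 3T3 cells and 1.34 ± 0.05 in Scid.adh cells with the empty vector (SD, n = 2 each), although their Runx genes were different ones. This ratio too depends on the length used, and per base of the longest transcript it was 0.798 in induced and 0.955 in normal 3T3 cells, and 1.21 in the knockout and 0.789 with the empty vector, so that only its direction of change held. The summed Runx level was 94.4 and 101 TPM in induced cells, against 112 and 113.5 TPM in normal cells. In Scid.adh it was 109.9 and 135 TPM in the knockout, against 144.5 and 134 TPM with the empty vector, and these groups overlapped.

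**Figure D3:**
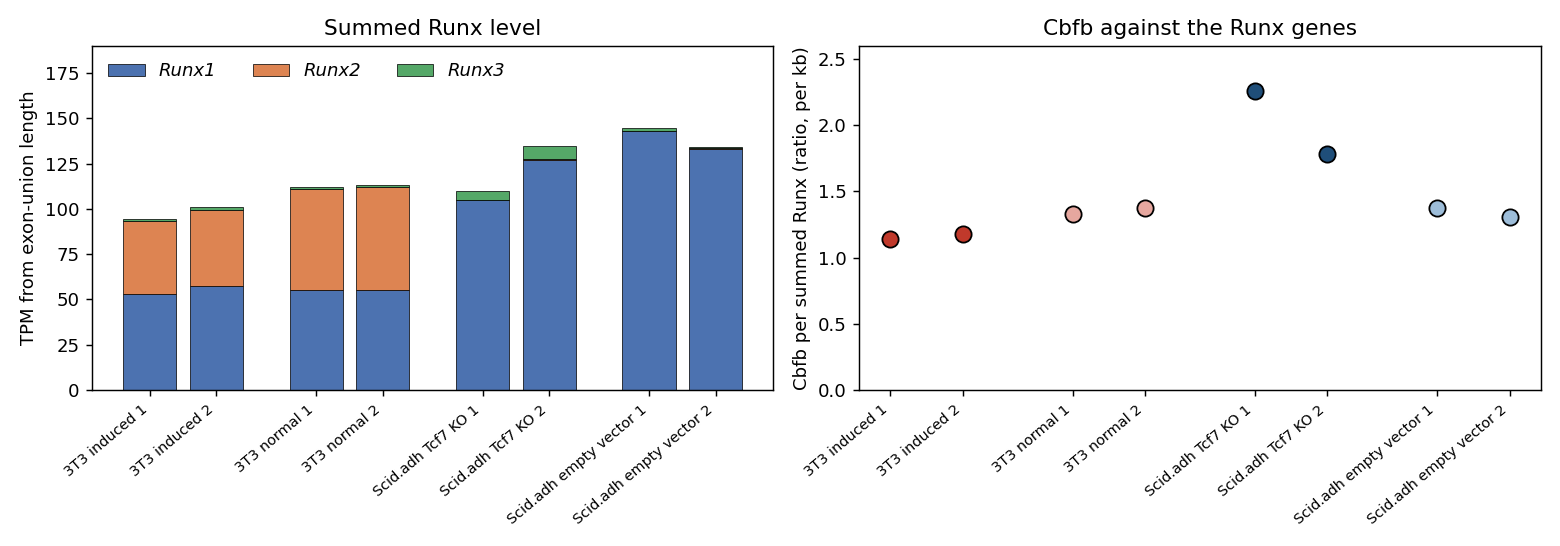
TPM of Runx1, Runx2 and Runx3 stacked for each library (left), and the ratio of Cbfb to their sum per length (right), where each bar or point is 1 library. Runx1 and Runx2 are nearly equal in normal 3T3 libraries, Runx1 makes up 94.3% to 99.2% in the 4 Scid.adh libraries, and the Cbfb ratio is lowest in induced 3T3 and highest in knockout Scid.adh libraries.

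Ranked by TPM over the 4 groups, Cbfb was highest in knockout Scid.adh cells at 244 ± 5.58, followed by the empty vector at 187 ± 16.7, normal 3T3 cells at 152 ± 4.62 and induced 3T3 cells at 114 ± 8.11 (SD, n = 2 each). The libraries of neighbouring groups in this order did not overlap. Runx1 was highest with the empty vector at 138 ± 6.94, then in the knockout at 116 ± 15.8, and its 3T3 groups shared the lowest place, at 55.03 ± 3.002 in induced and 55.4 in normal cells. Runx2 was a gene of the fibroblasts, at 41.1 ± 1.248 in induced and 56.3 ± 0.782 in normal cells, with 0.556 ± 0.223 in the knockout and 0.110 ± 0.027 with the empty vector. Runx3 led in the knockout at 5.91 ± 1.52, above induced 3T3 cells at 1.64 ± 0.472, while Scid.adh cells with the empty vector at 1.13 ± 0.237 and normal 3T3 cells at 1.15 ± 0.127 did not differ beyond their spread.

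Proteins that work with or on Runx factors formed a list of 47 genes, of which 44 passed the filter on low counts in 3T3 and 40 in Scid.adh. They include the TLE corepressors, the ETO family, chromatin modifiers, kinases and ubiquitin ligases of Runx proteins, and partners such as Cebpa and Ets1. In 3T3, 12 rose, 12 fell and 20 did not pass the test. The median log2 change was 0.04 beside 0.00 over all tested genes, of which 18.5% rose and 18.3% fell. Most of these cofactors averaged over 20 CPM, a level at which more genes were called. Among tested 3T3 genes averaging 20 to 100 CPM, 26.2% rose and 23.9% fell, and over 100 CPM 27.1% rose and 38.1% fell. Hes1, a Notch-responsive repressor that binds Runx2, was at 47.4 and 51.6 CPM with TCF-1 induced, against 24.3 and 25.9 CPM without (log2 change 0.97, SE 0.07). Pim1, a kinase that phosphorylates Runx proteins, was at 102 and 105 CPM with TCF-1 induced, against 62.7 and 65.0 CPM without (0.70, SE 0.05). Both were higher in the 2 induced libraries than in the 2 normal ones.

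Among cofactors that fell in 3T3 were Runx1t1, the ETO corepressor gene that is fused to RUNX1 in human leukaemia, and Twist1, a repressor that blocks the DNA-binding domain of Runx2. Runx1t1 was at 41.4 and 46.3 CPM in induced libraries, against 75.1 and 72.7 CPM in normal ones (-0.76, SE 0.06). Twist1 was at 35.3 and 36.8 CPM in induced libraries, against 56.7 and 60.5 CPM in normal ones (-0.70, SE 0.06). Both were lower in each induced library than in each normal one.

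In Scid.adh, 9 of the 40 tested cofactors rose, 10 fell and 21 did not pass the test, with a median log2 change of -0.09 beside -0.00 over all tested genes, of which 15.6% rose and 15.9% fell. Of the 9 that rose, 5 had a mean under 5 CPM, and none of the 10 that fell did. Most of the tested cofactors averaged over 20 CPM in this line too. Among tested Scid.adh genes averaging 20 to 100 CPM, 9.73% rose and 17.0% fell, and over 100 CPM 7.43% rose and 33.1% fell. Cebpa, a myeloid transcription factor that cooperates with Runx1, was at 19.8 and 18.2 CPM in the knockout, against 8.66 and 8.54 CPM with the empty vector (1.14, SE 0.17). Summed CPM of 7 myeloid markers, Cebpa included, was 30.9 to 32.1 in the knockout and 16.5 to 21.3 with the empty vector. Cebpa was the highest of them, averaging 19.0 CPM in the knockout and 8.60 CPM with the empty vector. Most of the difference between the sums thus lay in Cebpa. Of the 7 markers, 4 averaged 1 CPM or more in the knockout and 5 with the empty vector, and their part in the result was not tested. In such bulk libraries, fewer cells of a type and less RNA per cell cannot be told apart. Tle1, a Groucho corepressor, was at 7.54 and 6.65 CPM in the knockout, against 3.43 and 3.63 CPM with the empty vector (1.00, SE 0.26), and lost its call without empty vector library 1 (0.95, adjusted p = 0.0524 in edgeR) and in DESeq2 (adjusted p = 0.0643).

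Tle3, a more abundant member of the same corepressor family, moved the other way. It was at 142 and 158 CPM in the knockout, against 229 and 216 CPM with the empty vector (-0.57, SE 0.07). Tle4, also more abundant than Tle1, rose, at 65.4 and 72.6 CPM in the knockout, against 52.8 and 47.0 CPM with the empty vector (0.47, SE 0.10). Tle2 and Aes, of the same family, were not called. Tle4, Tle2 and Aes are named after their values were seen. Ccnd3, a cyclin whose protein binds Runx1 and competes with CBFβ, was at 57.4 and 60.9 CPM in the knockout, against 87.4 and 83.8 CPM with the empty vector (-0.53, SE 0.08). Neither group of libraries overlapped the other in Tle3, Tle4 and Ccnd3.

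Known lymphoid targets of Runx factors formed a list of 36 genes, of which 20 were tested in 3T3 and 23 in Scid.adh. In Scid.adh, 6 rose, 7 fell, among them Tcf7 itself, and 10 did not pass the test, with a median log2 change of -0.00, where 15.6% of all tested genes rose and 15.9% fell. Of the 6 that rose, 3 had a mean under 5 CPM. Most of the tested genes of this list averaged over 20 CPM, where the shares are those given with the cofactors. Itgae, which encodes the αE integrin CD103 and is activated by Runx3 in CD8 T cells, was at 14.6 and 13.1 CPM in the knockout, against 5.34 and 3.31 CPM with the empty vector (1.67, SE 0.24). Eomes, a T-box factor of cytotoxic cells, was at 20.4 and 17.1 CPM in the knockout, against 8.56 and 8.65 CPM with the empty vector (1.12, SE 0.18). Both were higher in each knockout library than in each control library.

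Ptcra, the pre-T cell receptor α chain gene, whose enhancer is active in DN3 cells, was at 47.9 and 45.1 CPM in the knockout, against 71.7 and 73.5 CPM with the empty vector (-0.64, SE 0.09). Bcl11b, a commitment factor whose activation in early thymocytes needs Runx1, was not called, at 644 and 721 CPM in the knockout and 676 and 679 CPM with the empty vector (0.01, SE 0.06, adjusted p = 0.914 in edgeR). It is named after its values were seen, beside the lower Runx1 level.

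In 3T3, where most lymphoid targets were low or not tested, 3 of 20 rose and 4 fell, with a median log2 change of -0.21, and the 35.0% called was close to the 36.8% of all genes. The genes that rose were Tcf7, which was itself manipulated, the interleukin receptor gene Il2rb and Zbtb7b, the gene of the CD4-lineage factor ThPOK. Il2rb was at 2.18 and 1.95 CPM in induced cells, against 0.500 and 0.287 CPM in normal cells. It passed the filter on low counts through the induced libraries. The change of Zbtb7b was 0.16 and lost its call without any 1 of the 4 libraries (0.15 to 0.17) and in DESeq2 (adjusted p = 0.234). Id2, an inhibitor of E proteins, was at 24.03 and 26.7 CPM in induced cells, against 57.7 and 55.6 CPM in normal cells (-1.16, SE 0.07). Meis1, a homeobox factor of progenitors, fell by 0.31 (SE 0.06) and the zinc finger gene Patz1 by 0.29 (SE 0.07), where Patz1 lost its call without normal library 1 (-0.24). The chemokine gene Ccl5, which Runx3 activates in CD8 T cells, was at 3.18 and 4.18 CPM in induced cells, against 5.76 and 5.40 CPM in normal cells, and lost its call without induced library 1 (-0.41) and in DESeq2 (adjusted p = 0.131).

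Skeletal targets of Runx2 formed a list of 32 genes, of which 23 were tested in 3T3. There 6 rose, 8 fell and 9 did not pass the test. The median log2 change was -0.03, where 18.5% of all tested genes rose and 18.3% fell. Many of the tested genes of this list averaged over 20 CPM, where the higher shares given with the cofactors apply. Mmp9, a matrix protease, was at 66.7 and 65.4 CPM in induced cells, against 19.3 and 17.2 CPM in normal cells (1.86, SE 0.07). Spp1, which encodes osteopontin and is a classical Runx2 target of bone, was at 432 and 435 CPM in induced cells, against 221 and 214 CPM in normal cells (0.99, SE 0.04). Timp1, an inhibitor of matrix proteases, was at 84.8 and 77.6 CPM in induced cells, against 43.2 and 40.6 CPM in normal cells (0.96, SE 0.06). These 3 targets were higher with TCF-1 induced. Fgfr2, a growth factor receptor of bone progenitors, was lower, at 39.4 and 39.4 CPM in induced cells, against 133 and 130.3 CPM in normal cells (-1.74, SE 0.05). These genes were named for the size of their change, out of the 6 that rose and the 8 that fell. A link to the lower Runx2 level was not tested.

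In Scid.adh, 18 of the 32 skeletal genes were tested, of which 10 rose, 1 fell and 7 did not pass the test, with a median log2 change of 0.71, where 15.6% of all tested genes rose and 15.9% fell. Of the 10 that rose, 7 had a mean under 5 CPM, a level at which rises outnumbered falls over all genes, and a gene near the filter can pass through its higher group alone. These 7 include the collagen genes Col1a1 (1.82 and 1.66 CPM in the knockout, against 0.403 and 0.320 CPM with the empty vector) and Col1a2 (2.43 and 2.25 CPM in the knockout, against 0.806 and 0.534 CPM with the empty vector), which are also fibroblast markers. Of 8 fibroblast markers, 5 averaged 1 CPM or more in the knockout and 1 with the empty vector, while their summed level was 11.2 to 11.8 CPM in the knockout and 122 to 127 CPM with the empty vector, where Pdgfrb alone averaged 122 CPM and Col3a1, Dcn and Lum had no count. The part of these markers in the result was not tested. The gene that fell was Alpl, the alkaline phosphatase of osteoblasts, at 42.6 and 37.7 CPM in the knockout, against 137 and 145 CPM with the empty vector (-1.82, SE 0.09). Bglap, the osteocalcin gene that defines mature osteoblasts, had no count in any Scid.adh library. Tgfbr1, a receptor of TGF-β, was at 231 and 239 CPM in the knockout, against 189 and 179 CPM with the empty vector (0.36, SE 0.06), and lost its call without empty vector library 2 (0.31). The bone-resorption ligand gene Tnfsf11, at 7.78 and 8.19 CPM in the knockout and 5.34 and 3.63 CPM with the empty vector, lost its call without empty vector library 2 (0.57), and Mmp9, at 12.6 and 10.9 CPM in the knockout and 8.56 and 7.05 CPM with the empty vector, without empty vector library 2 (0.45) or knockout library 1 (0.47). Neither was called in DESeq2 (adjusted p = 0.115 for Tnfsf11 and 0.165 for Mmp9).

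**Figure D4:**
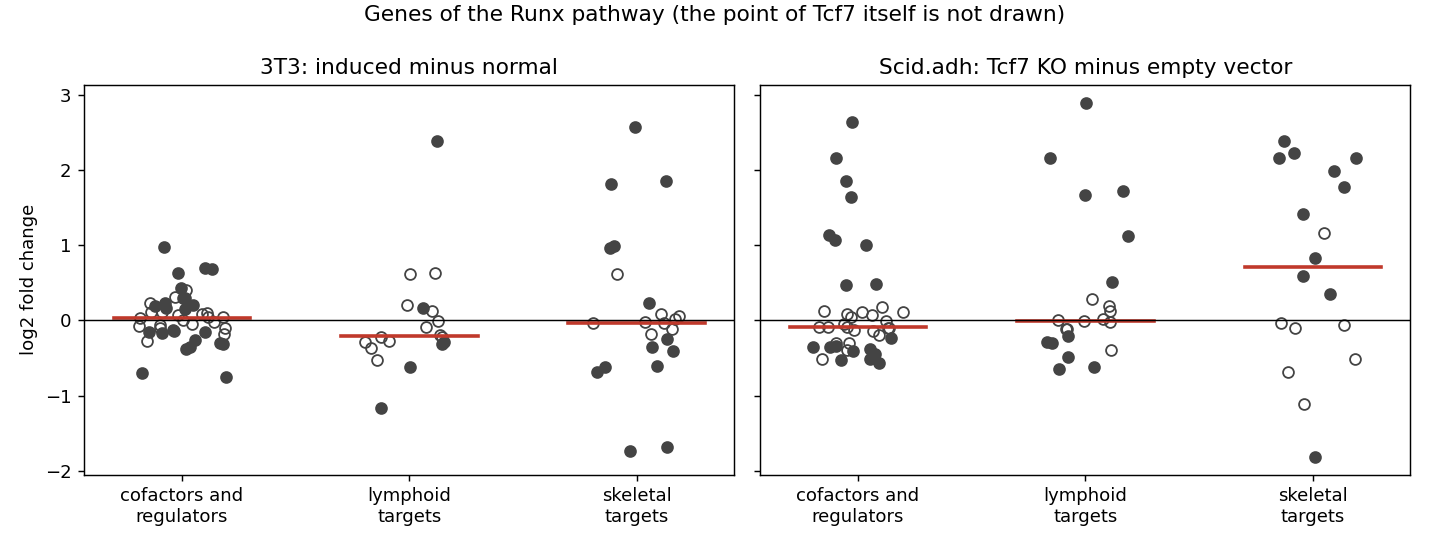
Log2 fold change of each tested gene of the cofactor, lymphoid target and skeletal target lists in each line; filled points are called genes, and the bar is the median of the tested members, Tcf7 included although its point is not drawn. The skeletal list has a median of 0.71 in Scid.adh, where 7 of its 10 genes that rose had a mean under 5 CPM, and the other medians lie between -0.21 and 0.04.

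Because the series asks about genome folding, the genes within 500 kb of each start were also followed. Around Runx3, 11 neighbours were tested in each line, and in Scid.adh 4 of them rose and 2 fell (54.5% called, beside 31.5% of all tested genes). Clic4, an intracellular chloride channel protein gene 152 kb away, was at 132 and 139.8 CPM in the knockout, against 17.6 and 22.5 CPM with the empty vector. It was 6.78-fold higher, with both knockout libraries far above both controls (log2 change 2.76, SE 0.11, adjusted p = 4.02e-09 in edgeR). Rsrp1, a gene for an arginine- and serine-rich protein on the other side of Runx3, was at 96.9 and 119.6 CPM in the knockout, against 50.8 and 56.3 CPM with the empty vector (1.02, SE 0.10). The neighbours of Runx3 did not move as a block, since Srrm1, a splicing coactivator gene 233 kb away, was at 518 and 561 CPM in the knockout, against 689 and 699.6 CPM with the empty vector (-0.36, SE 0.06). The other genes that rose were Grhl3 (1.60) and Maco1 (0.24). Grhl3 lost its call without empty vector library 1 (0.93), and Maco1 without either empty vector library (0.27 without library 1 and 0.19 without library 2) and in DESeq2 (adjusted p = 0.112).

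In 3T3, where Runx3 was not called, Clic4 was at 158 and 167 CPM in induced cells, against 112 and 113.5 CPM in normal cells (0.52, SE 0.04). Rsrp1 went the other way, at 129.9 and 132 CPM in induced cells, against 190.5 and 191.5 CPM in normal cells (-0.54, SE 0.04). Man1c1 (0.37) and Rcan3 (0.37) were among the others that rose, and 5 of 11 neighbours were called (45.5%, beside 36.8% of all tested genes). Man1c1 and Rcan3, and Grhl3 and Maco1 in Scid.adh, were chosen after their values were seen.

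Around Cbfb, a denser region, 7 of 31 tested neighbours were called in 3T3 (22.6%, beside 36.8% of all genes) and 3 of 18 in Scid.adh (16.7%, beside 31.5%). In 3T3, 5 rose and 2 fell. Among protein-coding neighbours averaging 5 CPM or more, 4931428F04Rik, 119 kb away, was at 10.8 and 7.21 CPM in induced cells, against 4.50 and 5.51 CPM in normal cells (0.87, SE 0.16), a change that was 0.52 without induced library 1. Fhod1, a formin that organizes actin, was at 38.4 and 38.7 CPM in induced cells, against 20.9 and 22.3 CPM in normal cells (0.83, SE 0.08). The others that rose were B3gnt9 (0.36), Gm20163 (0.96) and Plekhg4 (0.49), and those that fell were Atp6v0d1 (-0.36) and the noncoding gene Gm3830 (-1.94), which starts at -6.09 kb from Cbfb. Calls were lost for B3gnt9 without normal library 2 (0.31), for Gm20163 without induced library 1 (0.71), and for Plekhg4 without normal library 1 (0.45) or induced library 2 (0.40), and for all 3 in DESeq2 (adjusted p = 0.0514 for B3gnt9, 0.0727 for Gm20163 and 0.149 for Plekhg4).

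In Scid.adh, E2f4, a cell cycle repressor gene 127 kb from Cbfb, was at 195 and 192 CPM in the knockout, against 264 and 266 CPM with the empty vector (-0.45, SE 0.06), while Cbfb was higher. Hsd11b2 (2.38) and Hsf4 (1.201) rose, with means under 2 CPM. Hsd11b2 passed the filter on low counts through the knockout libraries. Tested genes averaging under 1 CPM in Scid.adh, Hsd11b2 among them, had a median log2 change of 1.83, with 65.0% called higher. Those averaging 1 to 5 CPM, Hsf4 among them, had a median of 0.50, with 28.4% called higher. Hsd11b2 lost its call without empty vector library 2 (2.01), and Hsf4 without empty vector library 1 (0.96), empty vector library 2 (1.45) or knockout library 1 (0.95). In DESeq2 neither was called (adjusted p = 0.0781 for Hsd11b2 and 0.234 for Hsf4). Runx1 and Runx2 have few tested neighbours. Supt3, a transcription cofactor gene whose start is 37.6 kb from that of Runx2, was not called in 3T3, at 23.3 and 24.1 CPM in induced cells and 24.1 and 27.8 CPM in normal cells, nor in Scid.adh, at 26.4 and 24.6 CPM in the knockout and 21.5 and 24.3 CPM with the empty vector. Around Runx1, none of 3 tested neighbours was called in 3T3, beside 36.8% of all tested genes. Both tested neighbours in Scid.adh, Clic6 and Rcan1, were called higher, beside 15.6% of all tested genes. Their limits are described with the paralogous loci.

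**Figure D5:**
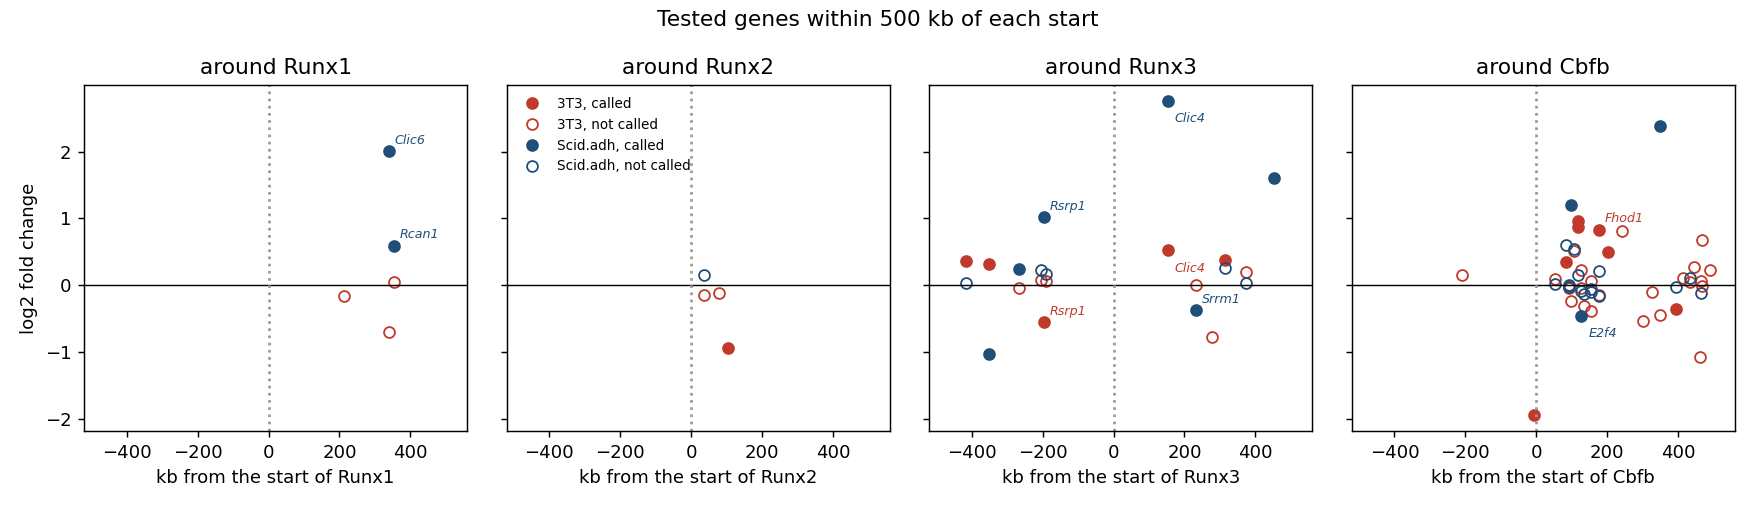
Log2 fold change of every tested gene within 500 kb of the start of each member, against its distance in kb, for 3T3 (induced minus normal) and Scid.adh (knockout minus empty vector); filled points are called. Clic4, 152 kb from Runx3, is the highest point, and 24 of 31 neighbours of Cbfb in 3T3 and 15 of 18 in Scid.adh are not called.

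The 3 Runx loci are paralogous and each carries a Clic gene, of the chloride intracellular channel family, and a Rcan gene, of the calcineurin regulators. These triplets were looked at after their values were seen. In Scid.adh, Clic4 was higher in the knockout, as given above, and the other Clic genes had few counts. Clic6, 340 kb from Runx1, was at 1.82 and 1.19 CPM in the knockout, against 0.403 and 0.320 CPM with the empty vector, from 25 and 7 counts summed over the group (2.01, SE 0.54, adjusted p = 0.0128 in edgeR). It passed the filter through the knockout libraries, and the 283 tested genes averaging under 1 CPM had a median log2 change of 1.83, with 65.0% called higher. Clic5, 626 kb from Runx2, was at 0.122 and 1.07 CPM in the knockout, against 0.101 and 0.107 CPM with the empty vector, so that only knockout library 2 stood apart, and it was not tested. The call of Clic6 was lost without empty vector library 1 (2.17), empty vector library 2 (1.85) or knockout library 1 (1.66), and in DESeq2 (adjusted p = 0.151). Rcan1, 355 kb from Runx1, was at 14.0 and 12.8 CPM in the knockout, against 8.26 and 9.50 CPM with the empty vector (0.59, SE 0.19), and lost its call without empty vector library 1 (0.48) or knockout library 1 (0.52), in DESeq2 (adjusted p = 0.129) and without the filter on low counts (adjusted p = 0.0560).

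Rcan3, 313 kb from Runx3, was not called in Scid.adh, at 4.13 and 3.09 CPM in the knockout and 1.91 and 4.16 CPM with the empty vector. In 3T3, Rcan2, 1013 kb from Runx2, was at 8.01 and 9.95 CPM in induced cells, against 34.0 and 32.8 CPM in normal cells. Its log2 change of -1.91 (SE 0.10, adjusted p = 7.98e-21 in edgeR) was larger than that of Runx2. Rcan1 was not called in 3T3 (0.05, adjusted p = 0.774 in edgeR).

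The genes whose pattern was most like that of each member were found by the Euclidean distance between log2(CPM + 1) profiles over the 8 libraries, each centred on its mean, among genes whose mean over these libraries was 5 CPM or more. For Runx1 these were the SR-related gene Scaf4 (distance 0.183), the splicing coactivator gene Srrm1 described among the neighbours of Runx3 (0.184) and the centriole gene Cep135 (0.197). For Runx2 they were the Wnt receptor gene Fzd1 (0.390), the glutamate receptor gene Gria3 (0.399) and the phosphatase gene Ppm1l (0.441). For Runx3 they were the palmitoyltransferase gene Zdhhc14 (0.511), the spectrin gene Sptbn4 (0.555) and Lztfl1 (0.666), a gene of ciliary transport. For Cbfb they were the Polycomb-associated gene Jarid2 (0.173), the RNA-binding protein gene Pum2 (0.187) and the sterol synthesis gene Hmgcs1 (0.189).

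Jarid2, nearest to Cbfb, was at 35.5 and 37.8 CPM in induced 3T3 cells, against 47.7 and 46.7 CPM in normal ones, and at 76.1 and 78.0 CPM in knockout Scid.adh cells, against 65.7 and 65.9 CPM with the empty vector, on the scaling of the joint fit. Zdhhc14, nearest to Runx3, was at 3.64 and 4.23 CPM in induced 3T3 cells, against 3.72 and 2.93 CPM in normal ones, and at 11.5 and 12.05 CPM in the knockout, against 4.44 and 3.02 CPM with the empty vector. Fzd1, nearest to Runx2, was at 64.5 and 64.9 CPM in induced cells, against 79.5 and 81.0 CPM in normal ones, with 0.470 and 0.909 CPM in the knockout and 0.099 and 0.104 CPM with the empty vector. Jarid2 and Fzd1 ordered the 4 groups by mean level as Cbfb and Runx2 did. They were chosen by distance over these same libraries, so the shared order follows from the choice. Fzd1, Gria3 and Ppm1l reached the mean of 5 CPM through the 3T3 libraries alone. In the knockout and with the empty vector, Gria3 averaged 0.462 and 0 CPM, and Ppm1l 1.21 and 0.203 CPM. The distances were smaller for Runx1 and Cbfb than for the low-count Runx3.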

How the data were processed

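The authors deposited raw gene counts, 1 file for each of 8 libraries, from total RNA with a RIN above 9, read in pairs of 38 and 37 bases per the labels' protocols. STAR 2.5.0a, HTSeq 0.6.1 and GRCm38 (mm10) are named per the submitters' processing notes, and the sources used here give neither the annotation release nor the strand setting. Of 30731 genes in both tables, 30692 had a length in GENCODE M21. Summary rows, held by the Scid.adh files alone, were left out; reads outside any gene were 22.3% and 25.8% in the knockout and 21.3% and 21.6% with the empty vector.

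With edgeR 4.0.16 in R 4.3.3, counts passing filterByExpr were TMM-scaled and each line was tested over all its genes (robust quasi-likelihood F-test, Benjamini-Hochberg adjustment, threshold 0.05). Adjusted p-values come from this test unless another is named. A joint fit of the genes in both tables tested the difference between lines. DESeq2 1.42.0, limma 3.58.1, other scalings and filters, a replicate block and each library left out were tried, and a loess correction was chosen after seeing the data. CPM used TMM-scaled library sizes; TPM was computed here from raw counts. The main fits did not pair libraries by replicate number, and the labels do not state whether such libraries were prepared together. The statistics were tried on simulated counts, drawn with the same spread for all genes and groups of a line. The wider spread between the knockout libraries was not part of that trial.

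Members and lists were chosen with earlier results of these data known. The genes named were the members, Tcf7, up to 4 called genes per line and list with the largest change and a mean of at least 5 CPM, 1 protein-coding neighbour per member within 500 kb, the 3 genes most alike and genes overlapping a member, beside those said to be chosen after their values were seen. Motif letters were searched in RefSeq promoter windows. Results of 1 gene near Runx3 are not reported here.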

Additional observations from a re-analysis of the deposited data

Results flagged for a closer look

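The change with TCF-1 induced in 3T3 cells and the change with TCF-1 knocked out in Scid.adh cells differed for Runx1, Runx3 and Cbfb by a test of the difference itself, in edgeR's joint fit, and the same test called Runx2, which entered that fit through its 3T3 counts alone. The difference, 3T3 minus Scid.adh on the log2 scale, was 0.39 for Runx1, -2.60 for Runx2, -1.75 for Runx3 and -0.67 for Cbfb, beside 30.7% of all genes in that fit. TCF-1 was gained in 1 line and lost in the other. Runx2 in Scid.adh has 25 counts over 4 libraries.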

How the results depend on the processing

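With 2 libraries a group, depth limits what can be said of Runx3 in 3T3, with 19 to 31 counts a library, and of Runx2 in Scid.adh, with 2 to 13. Directions and calls of Runx2 and Cbfb in 3T3 and of Runx1 and Runx3 in Scid.adh held under every alternative run. So did those of the differences between lines for Runx1, Runx3 and Cbfb. The difference for Runx2 held too, but each run drew on the same few Scid.adh counts or a part of them. It is therefore given as a description. Runx1 in 3T3, never called, changed sign with a filter at a mean of 1 CPM (-0.0002174) and in the joint fit (-0.01468), and ran from -0.0534 to 0.06776 with each library left out. Runx2 in Scid.adh, removed by the filter, was called without it (2.10) and in the joint fit (2.14), with a range of 1.93 to 2.504 over libraries left out. Cbfb in Scid.adh missed the threshold without the filter (0.20) and ranged from 0.16 to 0.33 with each library left out. The causes were not tested.

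DESeq2 called 4012 genes in 3T3, against 6693 in edgeR, 1960 in Scid.adh, against 3760, and 7 skeletal targets in Scid.adh, against 11. With a library left out, calls ranged from 4753 to 6809 in 3T3 and from 2221 to 4210 in Scid.adh, where skeletal targets called ranged from 6 to 13 and cofactors from 11 to 23. The numbers 2221 and 2378 came without empty vector library 1 and library 2.

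Per base of the longest transcript, the shares of Runx1, Runx2 and Runx3 were 65.93%, 32.85% and 1.224% in induced and 59.15%, 40.08% and 0.7687% in normal 3T3 cells, and 96.63%, 0.3035% and 3.067% in the knockout and 99.44%, 0.05252% and 0.5077% with the empty vector. The Cbfb ratio was then 0.7976 in induced and 0.9553 in normal 3T3 cells, and 1.208 in the knockout and 0.789 with the empty vector. On raw counts the shares were 64.03%, 35.18% and 0.7881% in induced and 56.95%, 42.56% and 0.4905% in normal 3T3 cells, 97.61% for Runx1 and 2.053% for Runx3 in the knockout, and 99.6%, 0.05801% and 0.337% with the empty vector. The Cbfb ratio was then 0.3821 in induced and 0.4537 in normal 3T3 cells, and 0.6019 in the knockout and 0.3898 with the empty vector. A longer or shorter length scales each gene by construction.

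Libraries with the same replicate number did not deviate together (correlation 0.03 in 3T3 and -0.007 in Scid.adh). A replicate block gave 7210 calls in 3T3 and 4038 in Scid.adh, and Runx1 in Scid.adh -0.39, Runx3 2.23 and Cbfb 0.26, and Runx2 in 3T3 -0.44 and Cbfb -0.41. It changed no call of a member.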
